A study of Mus musculus with 24 samples.

Results

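The genes described here are 7 genes of GABA neurons and of the receptor they act on: Gad1, Gad2, Slc32a1, Pvalb, Lhx6, Gabra2 and Gabrb2. They were chosen by name, as all 21 probe sets that the array annotation ties to 1 of these symbols and to no other gene, of 34945 probe sets with 1 symbol. A gene is represented by its brightest probe set on average, so the members are 7 of 18193 genes. RNA came from the forebrain of TgCRND8 mice, which carry a human amyloid precursor protein transgene labelled APPSwe/Ind, at 70, 80 and 150 days of age, and from control mice without the transgene, wild-type littermates, at the same ages. Each of the 6 groups held 4 mice, with 1 array per mouse, 24 arrays in all. The promoter that drives the transgene is not given in the labels, and the forebrain sample was what was left after olfactory bulb, cerebellum and brainstem had been cut away. Values are log2 signals as deposited, so a difference of 1 is a doubling of signal, and the 4 mice per group set the precision.

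GABA is the main inhibitory transmitter of the forebrain. Interneurons of cortex and hippocampus, and the projection neurons of striatum, make it from glutamate with glutamate decarboxylase and load it into synaptic vesicles. Released GABA opens GABA-A receptors, chloride channels built from alpha, beta and other subunits. Fast-spiking interneurons, which hold the calcium buffer parvalbumin and form synapses around cell bodies, are known for their part in pacing cortical rhythms.

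The arrays were alike: medians ran from 4.28 to 4.38, and the median correlation between arrays over all probe sets was 0.995 both within and between groups. Cortical and hippocampal neuron markers were present on every array, with Slc17a7, the vesicular glutamate transporter of cortical neurons, between 7.54 and 8.20 and Neurod6, a transcription factor of the same neurons, between 6.38 and 7.55. The control arrays numbered 3 stood apart for several members, as given below. Control array 4 of day 150 stood apart for cerebellar genes: Gabra6, a receptor subunit of cerebellar granule cells, read 4.58 there and 2.76 to 3.18 on the other 23 arrays, and Pcp2, a Purkinje cell gene, read 6.27 there and 3.78 to 4.56 elsewhere. Purkinje cells and other cerebellar neurons also make parvalbumin, and Pvalb read 9.47 on that array, the second highest of the 4 day 150 controls. Xist, the RNA of the inactive X chromosome, was low (3.07 to 3.50) in day 70 control array 4, day 80 TgCRND8 arrays 1 and 3 and day 80 control arrays 1 and 4, and lay between 9.36 and 9.85 in the rest.

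Gad1 and Gad2 encode the 2 forms of glutamate decarboxylase, and Slc32a1 encodes the transporter that fills vesicles with GABA. All 3 lie on mouse chromosome 2 in GRCm38.p6, Gad1 at 70561303 to 70602014, Gad2 at 22621015 to 22693877 and Slc32a1 at 158607260 to 158615747, and Pvalb lies on chromosome 15 at 78191112 to 78206400. Their signals were correlated across the 24 arrays, Gad1 with Gad2 and Slc32a1 and Pvalb against Slc32a1, as described below. The 250 bases before a transcription start of each are shown for comparison, and any part of these sequences in the correlations was not tested. The sequences are from RefSeq on GRCm38.p6, written 5′ to 3′ on the gene's strand, and capitals mark matches, on either strand, to the TATA box letters TATAAA, to the CAAT box letters CCAAT or to the homeobox core TAATTA. The Gad1 window lies at chr2:70561879-70562128 (plus strand), that of Gad2 at chr2:22622077-22622326 (plus strand), that of Slc32a1 at chr2:158610508-158610757 (plus strand) and that of Pvalb at chr15:78206401-78206650 (minus strand).
Gad1: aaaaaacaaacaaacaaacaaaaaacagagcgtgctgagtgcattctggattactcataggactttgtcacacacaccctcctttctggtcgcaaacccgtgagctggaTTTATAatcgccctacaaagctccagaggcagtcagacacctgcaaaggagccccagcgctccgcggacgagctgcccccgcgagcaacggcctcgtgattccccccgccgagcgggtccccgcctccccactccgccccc
Gad2: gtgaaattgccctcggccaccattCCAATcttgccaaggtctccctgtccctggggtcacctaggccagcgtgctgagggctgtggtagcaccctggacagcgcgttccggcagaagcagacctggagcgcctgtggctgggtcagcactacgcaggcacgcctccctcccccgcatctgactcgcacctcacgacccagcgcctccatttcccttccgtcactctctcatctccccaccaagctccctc
Slc32a1: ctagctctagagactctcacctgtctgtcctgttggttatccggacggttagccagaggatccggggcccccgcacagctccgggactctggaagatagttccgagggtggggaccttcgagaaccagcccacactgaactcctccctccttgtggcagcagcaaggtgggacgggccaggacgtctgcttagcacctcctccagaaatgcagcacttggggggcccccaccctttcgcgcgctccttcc
Pvalb: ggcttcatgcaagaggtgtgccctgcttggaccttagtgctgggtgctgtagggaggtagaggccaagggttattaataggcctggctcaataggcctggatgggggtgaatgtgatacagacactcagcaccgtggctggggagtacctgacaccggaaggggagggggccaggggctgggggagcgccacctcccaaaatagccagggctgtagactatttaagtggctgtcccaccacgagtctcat
The Gad1 window held 1 TATAAA, on the reverse strand and starting 141 bases before the start site, and the Gad2 window held 1 CCAAT, 226 bases before it. The Slc32a1 and Pvalb windows held neither. Of all 32851 promoter windows of this length, the TATA box letters were in 12.4%, the CAAT box letters in 33.9% and the homeobox core in 4.84%, and over all their windows 2, 4 and 0 of the 7 members had them. The printed windows of Gad1, Gad2 and Slc32a1 held 17, 13 and 12 CG pairs and that of Pvalb 4, where the median of all windows was 6. Another annotated Pvalb start had 23. A match of letters in these windows is a description and does not show a binding site.

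No member passed between TgCRND8 and control forebrain at any age. The test was limma, a linear model that shares the estimate of spread between genes, and the threshold an adjusted p (Benjamini-Hochberg over all 18193 genes) under 0.05. Of the 7 members, 0 passed at day 70 (0% of all genes passed), 0 at day 80 (0%), 0 at day 150 (0.121%) and 0 for the mean of the 3 ages (0.0385%), and each adjusted p was 0.999 or above. At an unadjusted p under 0.05 there were 2 members at day 70 (3.25% of all genes), 0 at day 80 (3.77%), 0 at day 150 (4.38%) and 2 for the mean of ages (3.16%). The members' median difference was -0.11 at day 70, -0.09 at day 80, -0.04 at day 150 and -0.04 for the mean of ages, against medians within 0.01 of 0 over all genes. The ranges of the genotypes did not overlap for 0 of 7 members at day 70 (2.36% of all genes), 1 at day 80 (1.25%) and 0 at day 150 (3%). In the mean of ages 1 member read higher in TgCRND8 forebrain and 6 read lower, where 51.0% of all genes read lower. In bulk tissue, fewer cells of a type and less RNA per cell cannot be told apart.

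**Figure D1:**
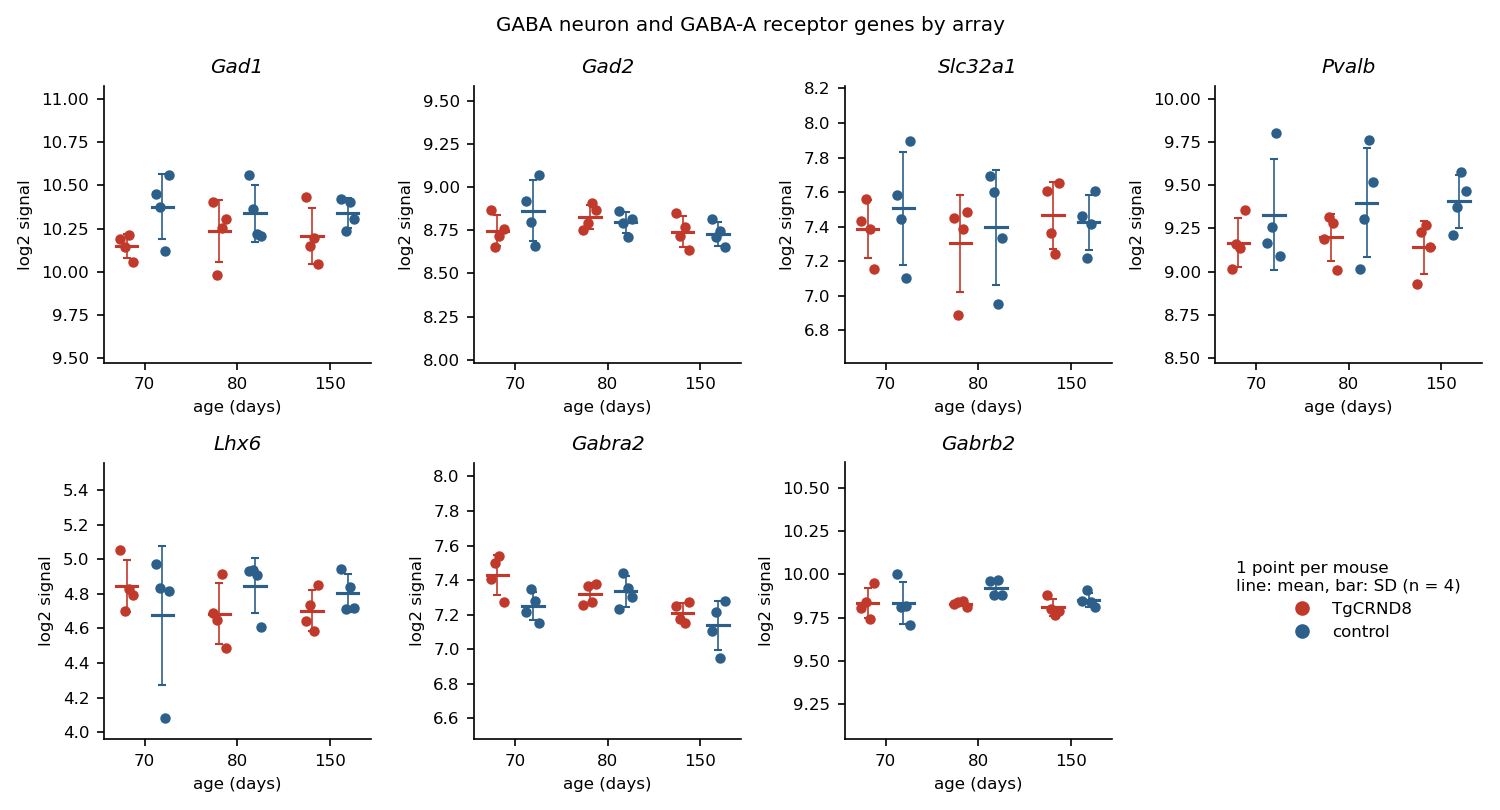
Log2 signal (vertical axes) of the 7 genes in each of 24 forebrains by age in days, with TgCRND8 left of control, 1 point per mouse, the line at the mean and the bar ± 1 SD (n = 4). The genotypes overlap at nearly all points. The exception is Gabrb2 at day 80 on its brightest probe set, where the TgCRND8 mice read 9.81 to 9.85 and the controls 9.88 to 9.96. Its dimmest probe set, not drawn, separated them the other way.

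Gad1 supplies most of the brain's GABA through the form of the enzyme found throughout the neuron. At day 70 it read 10.19, 10.14, 10.21 and 10.06 in TgCRND8 forebrains, against 10.45, 10.38, 10.12 and 10.56 in control forebrains. Here 3 of 4 controls lay above every TgCRND8 mouse and control array 3 lay inside their range. The means were 10.15 ± 0.07 in TgCRND8 and 10.38 ± 0.19 in controls (SD, n = 4 each), a difference of -0.23 (95% interval -0.44 to -0.02; unadjusted p = 0.0364 in limma, adjusted p above 0.999, exact permutation p = 0.114). At day 80 it read 10.41, 9.98, 10.25 and 10.31 in TgCRND8, against 10.56, 10.37, 10.22 and 10.21 in controls, a difference of -0.10 (-0.31 to 0.11). At day 150 it read 10.43, 10.15, 10.20 and 10.05 in TgCRND8, against 10.42, 10.23, 10.41 and 10.30 in controls, a difference of -0.13 (-0.35 to 0.08). At both later ages the groups overlapped. Averaged over ages the difference was -0.15 (-0.28 to -0.03; unadjusted p = 0.0149 in limma), lower in TgCRND8 at each of the 3 ages, and it did not pass after adjustment. Without the control arrays numbered 3, left out after the values were seen, it was -0.19 (unadjusted p = 0.00470 in limma, adjusted p = 0.847). The TgCRND8 arrays numbered 3 stayed in, here and in each such fit below, so replicate numbers were no longer balanced between genotypes. In that fit the Gad1 differences were -0.31 at day 70 (unadjusted p = 0.00670, adjusted p = 0.922), -0.14 at day 80 and -0.11 at day 150. Control array 4 of day 70, the low-Xist array of that age, held the highest Gad1 reading of all 24 arrays (10.56). Without that array alone the day 70 difference was -0.16. The second Gad1 probe set, with a mean of 9.38, differed by -0.18 at day 70, 0.01 at day 80 and -0.04 at day 150.

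Gad2, the form concentrated at axon terminals, was the steadier of the decarboxylase genes. Its readings ran from 8.65 to 8.86 in TgCRND8, against 8.66 to 9.07 in controls, at day 70. They ran from 8.75 to 8.91 in TgCRND8, against 8.71 to 8.86 in controls, at day 80, and from 8.63 to 8.85 in TgCRND8, against 8.65 to 8.82 in controls, at day 150. The ranges overlapped at every age. The differences were -0.11 (95% interval -0.28 to 0.05) at day 70, 0.03 (-0.13 to 0.20) at day 80 and 0.01 (-0.15 to 0.17) at day 150. For the mean of ages the interval was -0.12 to 0.07. Without the control arrays numbered 3, left out after the values were seen, the Gad2 difference was -0.18 at day 70 (unadjusted p = 0.0324 in limma, adjusted p = 0.922). It was then 0.01 at day 80 and 0.02 at day 150.

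Slc32a1, which marks every neuron that releases GABA or glycine from vesicles, varied widely between mice of 1 group. At day 70 it read 7.43, 7.56, 7.39 and 7.16 in TgCRND8, against 7.59, 7.45, 7.10 and 7.89 in controls. At day 80 it read 7.45, 6.89, 7.39 and 7.48 in TgCRND8, against 7.69, 7.60, 6.95 and 7.33 in controls. The lowest readings of these ages came from TgCRND8 array 2 and control array 3 of day 80, and both genotypes spanned most of the same range. At day 150 it read 7.60, 7.37, 7.24 and 7.65 in TgCRND8, against 7.46, 7.22, 7.42 and 7.60 in controls. The differences, -0.12, -0.09 and 0.04 at days 70, 80 and 150, were each smaller than the within-group SD of 0.254, and the interval for the mean of ages ran from -0.25 to 0.13. Without the control arrays numbered 3, left out after the values were seen, they were -0.26 (unadjusted p = 0.0877 in limma), -0.24 (unadjusted p = 0.108) and 0.04. Control array 4 of day 70, low in Xist, held the highest Slc32a1 reading of all 24 arrays (7.89), and without it alone the day 70 difference was 0.01. The 3 dimmer Slc32a1 probe sets (means 4.84, 3.92 and 3.43) differed by 0.02, 0.04 and 0.05 in the mean of ages and did not follow the brightest across arrays (r = -0.31, -0.06 and -0.23 over 24 arrays, as a description).

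Pvalb encodes parvalbumin and read lower in TgCRND8 forebrain at each age, within overlapping ranges. At day 70 it read 9.01, 9.16, 9.14 and 9.36 in TgCRND8, against 9.17, 9.26, 9.80 and 9.09 in controls. At day 80 it read 9.19, 9.32, 9.28 and 9.01 in TgCRND8, against 9.02, 9.31, 9.76 and 9.52 in controls. At day 150 it read 8.93, 9.23, 9.27 and 9.14 in TgCRND8, against 9.21, 9.37, 9.57 and 9.47 in controls. Control array 3 gave the highest reading of its group at all 3 ages. The differences were -0.16 (95% interval -0.45 to 0.13), -0.20 (-0.49 to 0.09) and -0.27 (-0.55 to 0.02) at days 70, 80 and 150. The mean of ages was -0.21 (-0.38 to -0.04; unadjusted p = 0.0159 in limma, adjusted p above 0.999). Without the 3 control arrays numbered 3, an alternative chosen after the values were seen, the difference for the mean of ages was -0.098 (unadjusted p = 0.144 in limma), and without control array 3 alone the day 70 difference was -0.005 and the day 80 difference -0.08. Pvalb has 1 probe set on the array, so no second reading was to be had.

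Lhx6, a homeobox transcription factor kept by interneurons born in the medial ganglionic eminence, among them parvalbumin and somatostatin cells, was a dim gene here. It read 4.70 to 5.05 in TgCRND8, against 4.08 to 4.97 in controls, at day 70, where the lowest value was control array 3. It read 4.49 to 4.91 in TgCRND8, against 4.61 to 4.94 in controls, at day 80, and 4.58 to 4.85 in TgCRND8, against 4.71 to 4.95 in controls, at day 150. The differences of 0.17 (95% interval -0.11 to 0.45), -0.16 (-0.44 to 0.12) and -0.10 (-0.38 to 0.18) at days 70, 80 and 150 were not of the same sign. Without control array 3 the day 70 difference was -0.03. A second, dimmer Lhx6 probe set (mean 3.34) had the opposite sign at each age, -0.14, 0.07 and 0.01.

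**Figure D2:**
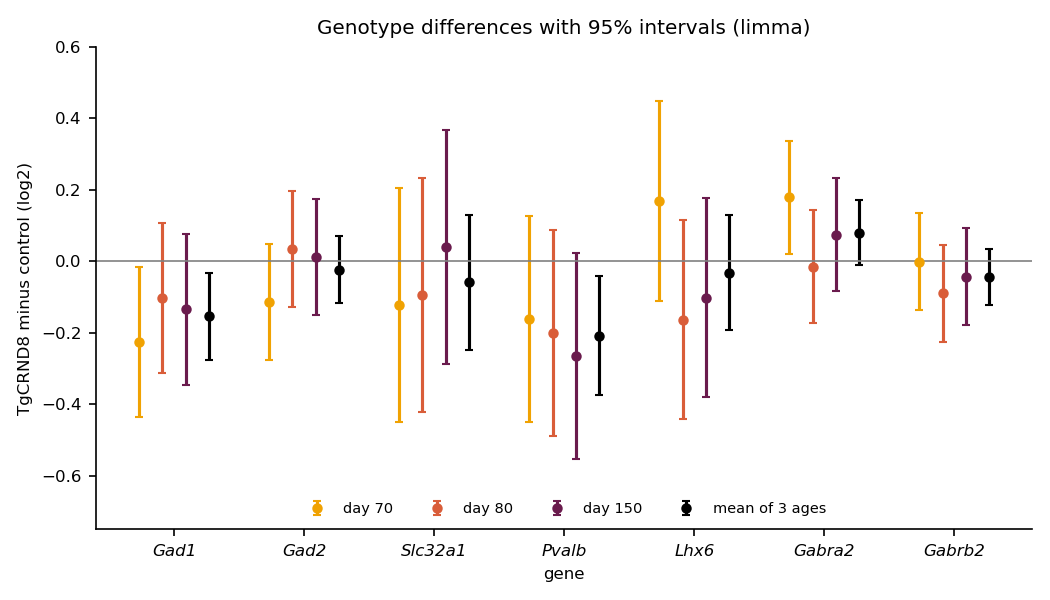
Difference in log2 signal, TgCRND8 minus control (vertical axis), for each gene at 70, 80 and 150 days and for the mean of the 3 ages, with 95% intervals from limma. The intervals of Gad1 at day 70 (-0.44 to -0.02), Gabra2 at day 70 (0.02 to 0.34) and of Gad1 and Pvalb for the mean of ages leave out 0 before adjustment, and no gene passed after it.

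Gabra2 encodes an alpha subunit of the GABA-A receptor that is common in hippocampus, striatum and cortex and sits at synapses on the axon initial segment among other places. At day 70 it read 7.41, 7.50, 7.54 and 7.28 in TgCRND8, against 7.22, 7.35, 7.28 and 7.15 in controls. The ranges overlapped through TgCRND8 array 4 and control array 2. The means were 7.43 ± 0.12 in TgCRND8 and 7.25 ± 0.08 in controls (SD, n = 4 each), a difference of 0.18 (95% interval 0.02 to 0.34; unadjusted p = 0.0274 in limma, adjusted p above 0.999, exact permutation p = 0.0857). At day 80 it read 7.26, 7.37, 7.27 and 7.38 in TgCRND8, against 7.24, 7.44, 7.36 and 7.30 in controls, a difference of -0.02 (-0.17 to 0.14). At day 150 it read 7.25, 7.18, 7.15 and 7.27 in TgCRND8, against 7.11, 7.22, 6.95 and 7.28 in controls, a difference of 0.07 (-0.08 to 0.23). Both later ages showed overlap. The difference at day 80 minus that at day 70 was -0.20 for Gabra2 (unadjusted p = 0.0837 in limma), so the change of the genotype difference between these ages did not pass either.

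The 3 bright Gabra2 probe sets gave the same signs between genotypes. Beside the brightest, those with means of 7.09 and 6.84 differed by 0.16 and 0.21 at day 70, -0.14 and -0.16 at day 80, and 0.14 and 0.20 at day 150. The dim Gabra2 probe set with a mean of 3.11 had the same signs at smaller size (0.02, -0.05 and 0.10), and that with a mean of 2.85 read lower in TgCRND8 at each age (-0.12, -0.03 and -0.11). With all 5 averaged the day 70 difference was 0.09.

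**Figure D3:**
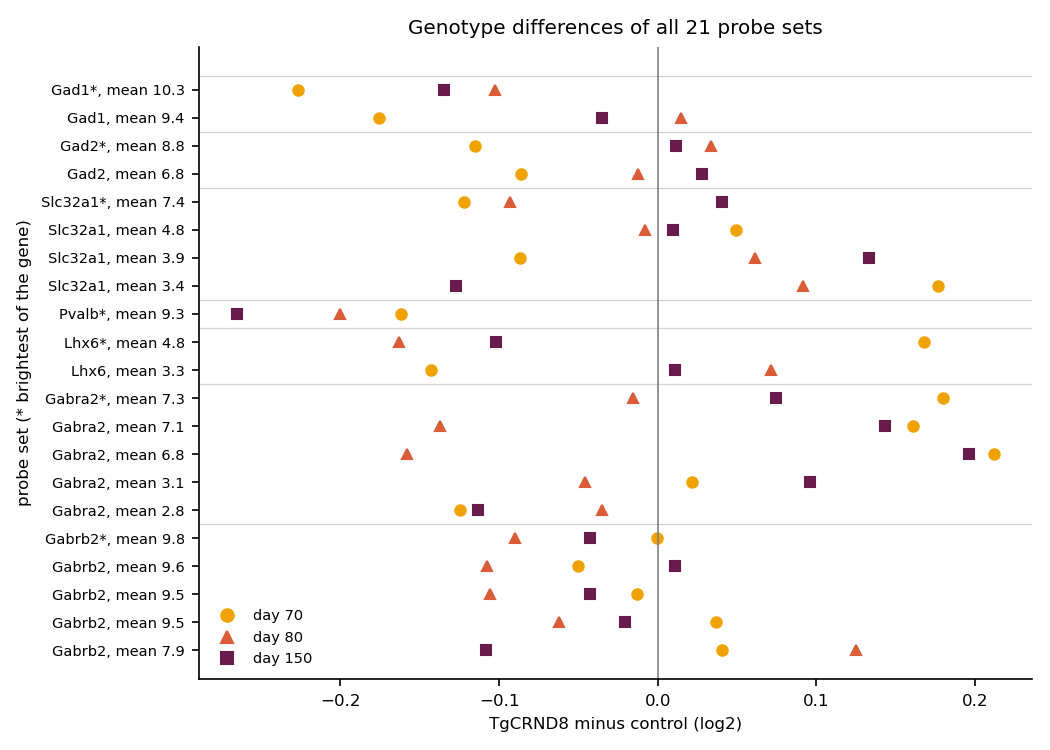
Difference in log2 signal, TgCRND8 minus control (horizontal axis), of all 21 probe sets of the 7 genes at days 70, 80 and 150, with each probe set named by its gene and its mean log2 signal and the brightest marked by a star. The 3 bright Gabra2 probe sets lie between 0.16 and 0.21 at day 70, while the 4 Slc32a1 probe sets spread to both sides of 0.

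Gabra2 was also the member that differed most with age. On its brightest probe set every day 150 TgCRND8 mouse (7.15 to 7.27) read below every day 70 TgCRND8 mouse (7.28 to 7.54), a difference of -0.22 for day 150 minus day 70 (unadjusted p = 0.00900 in limma, exact permutation p = 0.0286, the smallest that 4 against 4 arrays allow). Of the 7 members 1 showed such a gap, in either direction, as did 2.49% of all genes in this comparison. The adjusted p was 0.686 or above for each member in each age comparison. In controls the readings were 6.95 to 7.28 at day 150 and 7.24 to 7.44 at day 80, a difference of -0.20 for day 150 minus day 80 (unadjusted p = 0.0169 in limma). Without the control arrays numbered 3, left out after the values were seen, this was -0.13 (unadjusted p = 0.155), and without control array 3 of day 150 alone it was -0.13. The brightest probe set gave -0.11 both for day 150 minus day 80 in TgCRND8 (unadjusted p = 0.179) and for day 150 minus day 70 in controls (unadjusted p = 0.158). The other bright Gabra2 probe sets gave -0.17 and -0.19 for day 150 minus day 70 in TgCRND8 and -0.25 and -0.30 for day 150 minus day 80 in controls. On both, the readings of day 70 and day 150 TgCRND8 mice overlapped. Against day 70, day 150 also read lower in controls on these probe sets (-0.15 and -0.18), but against day 80 in TgCRND8 they read 0.04 and 0.05 higher, so the probe sets did not share 1 pattern with age.

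Over the age comparisons within a genotype, 0 of 7 members passed. The share of all genes that passed was 0% for day 80 minus day 70, 0.0879% for day 150 minus day 70 and 0.022% for day 150 minus day 80 in TgCRND8, and 0%, 0.022% and 0% in controls. At an unadjusted p under 0.05, Gabra2 was the 1 member in day 150 minus day 70 in TgCRND8 (2.64% of all genes) and in day 150 minus day 80 in controls (3.41%), and the other age comparisons held 0 members, against 5.72% of all genes for day 80 minus day 70 and 6.76% for day 150 minus day 80 in TgCRND8 and 3.24% and 7.99% for day 80 and day 150 minus day 70 in controls. Ranges without overlap were found for 0 members in the other age comparisons, against 2.04% (day 80 minus day 70) and 2.59% (day 150 minus day 80) of all genes in TgCRND8 and 2.19% (day 80 minus day 70), 4.58% (day 150 minus day 70) and 2.41% (day 150 minus day 80) in controls. For the change of the genotype difference between ages, 0 members passed and 0 had an unadjusted p under 0.05, against 0% and 2.64% of genes for day 80 minus day 70 and 0.011% and 5.75% for day 150 minus the mean of the earlier ages.

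Gabrb2 encodes a beta subunit found in many synaptic GABA-A receptors and was the steadiest member. Its within-group SD of 0.0696 exceeded that of 2.03% of genes. At day 80 it read 9.83, 9.84, 9.85 and 9.81 in TgCRND8, against 9.96, 9.88, 9.96 and 9.88 in controls. On this brightest probe set every TgCRND8 mouse lay below every control, the 1 member of that comparison without overlap. The 3′ minus 5′ signal of the actin control transcript, a sign of RNA integrity, was 0.80, 0.69, 0.75 and 0.66 on the same TgCRND8 arrays, against 0.86, 0.83, 0.88 and 0.78 on the controls, lower on average in TgCRND8 too. Over the 24 arrays Gabrb2 correlated with this actin signal at r = 0.58, as a description. With those of Gapdh, transferrin receptor and pyruvate carboxylase r was 0.12, 0.07 and -0.24. The part of RNA integrity in the Gabrb2 reading was not tested. The Gabrb2 difference at day 80 was small, -0.09 (95% interval -0.23 to 0.05; unadjusted p = 0.184 in limma, exact permutation p = 0.0286, the smallest possible). At day 70 it read 9.74 to 9.95 in TgCRND8, against 9.71 to 9.82 in control arrays 2 to 4, with control array 1 above all of them. At day 150 it read 9.76 to 9.88 in TgCRND8, against 9.81 to 9.91 in controls, and the ranges overlapped at both ages. The differences there were -0.00 and -0.04. Of the other 4 Gabrb2 probe sets, those with means of 9.61, 9.51 and 9.46 differed by -0.11, -0.11 and -0.06 at day 80, with overlap between the genotypes. The dimmest, at 7.95, differed by 0.12. There every TgCRND8 mouse of day 80 (7.91 to 8.01) read above every control (7.83 to 7.89). The probe sets of Gabrb2 thus did not separate the genotypes in 1 direction.

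The order of the 6 groups differed from gene to gene. For Gad1, Pvalb and Gabrb2 every control mean lay above every TgCRND8 mean, for Gabrb2 by only 0.000767. For Gad2, Slc32a1, Lhx6 and Gabra2 the genotypes were mixed in the order. Gad1, Gad2 and Slc32a1 were highest in day 70 controls (10.38, 8.86 and 7.51), Pvalb in day 150 controls (9.41), Lhx6 and Gabrb2 in day 80 controls (4.85 and 9.92) and Gabra2 in day 70 TgCRND8 mice (7.43). The lowest groups were day 70 TgCRND8 for Gad1 (10.15), day 150 controls for Gad2 (8.73) and Gabra2 (7.14), day 80 TgCRND8 for Slc32a1 (7.30), day 150 TgCRND8 for Pvalb (9.14) and Gabrb2 (9.81), and day 70 controls for Lhx6 (4.68). Between groups next to each other in these orders, the gap was below the within-group SD, which is that of single mice, for each of the 7 genes. From highest to lowest group the span was above that SD for Gad1, Gad2, Pvalb, Gabra2 and Gabrb2, and below it for Slc32a1 and Lhx6. For Gabra2 it was 0.291 against an SD of 0.0962. The largest gap between neighbouring groups was 0.130, for Pvalb, whose within-group SD was 0.219. It lay between day 70 controls and day 80 TgCRND8 mice, where the genotypes part.

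The genes around GABA showed the same absence of calls. Lists of 97 related genes in 7 groups held 85 measured genes beside the members, and 0 of the 85 passed in any of 12 comparisons. At an unadjusted p under 0.05 there were 8 (9.41% of the 85, where 3.25% of all genes met it) at day 70, 1 (1.18%, all genes 3.77%) at day 80, 4 (4.71%, all genes 4.38%) at day 150 and 4 (4.71%, all genes 3.16%) for the mean of ages. In the mean of ages 34 read higher in TgCRND8 and 51 lower, with a median of -0.01. The 8 of day 70, named here after their values were seen, were 7 that read lower, Slc6a11, Slc12a2, Plcl1, Dlx1, Sox6, Syt2 and Hapln1, and Htr3a, which read higher.

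Among 10 genes of GABA synthesis, transport and breakdown, 3 read higher and 7 lower in the mean of ages. Slc6a11, the GABA transporter of astrocytes, differed by -0.29 at day 70 and by -0.13 in the mean of ages, Slc12a2, which loads chloride into cells, by -0.11, and Abat, which breaks GABA down, by -0.07. Of 17 fast-spiking cell and perineuronal net genes, 8 read higher and 9 lower with a median of -0.01. Syt2, the calcium sensor of fast-spiking terminals, differed by -0.38 at day 70 and -0.18 in the mean of ages, and Hapln1, a link protein of the nets that surround parvalbumin cells, by -0.35 and -0.17. Both were named for a small unadjusted p, and 8 genes of this list read the other way in the mean of ages. Across the 24 arrays Pvalb ran against the mean of this list, with r = -0.66, or -0.83 with group means out, as a description.

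Of 16 other interneuron subtype genes 11 read higher and 5 lower (median 0.02): Cort, a peptide of some parvalbumin and somatostatin cells, differed by -0.13, Crh, a peptide of several neuron types, by 0.17 and Vip, the peptide of another interneuron class, by 0.10. Of 13 interneuron transcription factor genes 4 read higher and 9 lower. Sox6, which acts after Lhx6 in the same interneurons, differed by -0.25 at day 70 (unadjusted p = 0.000812 in limma, adjusted p above 0.999) and 0.14 at day 150, and Dlx1, an earlier factor of the lineage, by -0.21 at day 70, 0.09 at day 80 and 0.12 at day 150, or -0.00 in the mean of ages. Of 13 scaffold and trafficking genes 4 read higher and 9 lower, with Gphn, the gephyrin scaffold under GABA-A receptors, at 0.03 and Plcl1, which binds the receptors' beta subunits, at -0.11. Of 4 GABA-B receptor genes 1 read higher and 3 lower, with Gabbr1, a subunit of that receptor, at -0.01.

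The 12 other GABA-A subunit genes read higher in TgCRND8 in 9 cases and lower in 3 at day 70 (median 0.04), 3 and 9 at day 80 (median -0.04), and 5 and 7 at day 150 (median -0.06). In the mean of ages the split was 3 and 9 (median -0.01). In the mean of ages Gabrb1 differed by 0.07, Gabrg3 by 0.05, Gabra3 by -0.05 and Gabra6 by -0.17. Gabra6 had the widest gap of any subunit gene, -0.46 at day 150 (unadjusted p = 0.0448 in limma, adjusted p = 0.999). That value came with control array 4 of day 150, which read high for cerebellar genes, and without it the difference was -0.05.

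Markers of other cells and regions in the sample were read beside these genes. In the mean of ages 6 of 14 excitatory neuron markers read higher in TgCRND8 and 8 lower (median -0.02), 8 of 11 striatal projection neuron markers higher and 3 lower (median 0.02), and 0 of 9 thalamus markers higher and 9 lower (median -0.05). At day 70, 1 thalamus marker read higher and 8 lower (median -0.13). Pvalb is also expressed in the reticular thalamus and globus pallidus, and of 8 candidate genes of those regions 4 read higher and 4 lower in the mean of ages (median 0.01). Of 7 oligodendrocyte markers 0 read higher and 7 lower, both in the mean of ages (median -0.07) and at day 70 (median -0.17). None of the genes of these 5 lists passed between genotypes. At day 150 all 9 microglia markers read higher in TgCRND8, and 3 passed. The part of these cell types in the members' values was not tested.

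**Figure D4:**
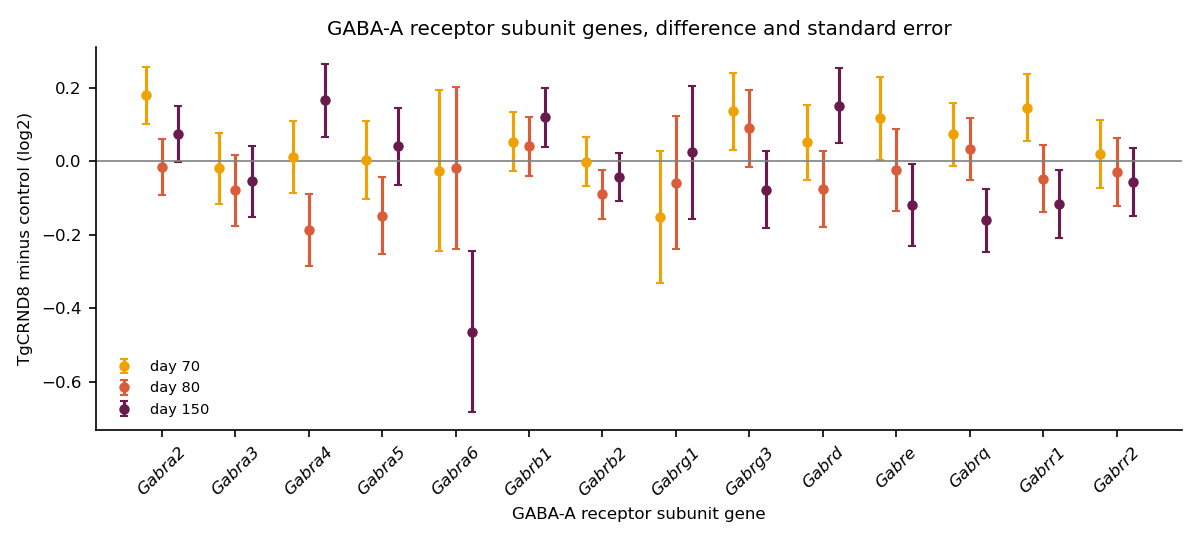
Difference in log2 signal, TgCRND8 minus control (vertical axis), with its standard error, for the 14 measured GABA-A receptor subunit genes at days 70, 80 and 150. Gabra6 at day 150 (-0.46) stands farthest from 0 and Gabra2 at day 70 is at 0.18.

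Variation between mice of the same group differed from gene to gene. The within-group SD was 0.254 for Slc32a1, larger than for 96.8% of genes, 0.219 for Pvalb (92.7%) and 0.212 for Lhx6 (91.0%). It was 0.149 for Gad1 (58.6%), 0.10 for Gad2 (14.4%) and 0.0962 for Gabra2 (11.7%).

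Much of that variation was shared. Over the 24 arrays, 3 of 21 pairs of members had an adjusted p under 0.05 for Pearson's r by a permutation test with 100000 resamples (Benjamini-Hochberg over the 21 pairs). The share of pairs among all genes that would pass was not computed, so the count cannot be read as a trait of the members. Whether it is particular to them was not tested. All 24 arrays were shuffled freely, without regard to group or replicate number. Gad1 and Slc32a1 were high and low on the same arrays, with r = 0.666 (p = 0.00042, adjusted 0.00882) and Spearman's rho = 0.606 (p = 0.00223, adjusted 0.0234) in permutation tests. Without the 2 arrays farthest from the Gad1 median r was 0.542, and with the group means taken out it was 0.742. Gad1 and Gad2 had r = 0.595 (p = 0.00202, adjusted 0.0141) and rho = 0.545 (p = 0.00682, adjusted 0.0477) in permutation tests, 0.441 without the 2 farthest arrays and 0.646 with group means out. Slc32a1 and Pvalb ran opposite, with r = -0.616 (p = 0.00153, adjusted 0.0141) and rho = -0.647 (p = 0.00089, adjusted 0.0187) in permutation tests, -0.584 without the 2 farthest arrays and -0.776 with group means out. Mice with a high Slc32a1 signal thus tended to have a low Pvalb signal within the same genotype and age. With group means out Pvalb also ran against Gad1 (r = -0.760), Gad2 (-0.659) and Lhx6 (-0.517), as a description, though these pairs did not pass over the 24 arrays. With Gabra2 and Gabrb2 its r was then -0.02 and 0.02.

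Slc32a1, Pvalb and Gad1 followed a pattern common to the whole array. The first principal component over all genes held 20.8% of the variance, and its correlation over the 24 arrays, given as a description since the component is built from the same arrays, was 0.90 for Slc32a1, 0.64 for Gad1 and -0.75 for Pvalb. The absolute value for Slc32a1 was larger than that of 98.9% of genes, for Pvalb 92.3% and for Gad1 85.6%. It was 0.39 for Lhx6, 0.34 for Gad2, -0.08 for Gabra2 and -0.10 for Gabrb2. The lowest scores on this component were those of control array 3 of day 80 (-0.41), control array 3 of day 70 (-0.37) and TgCRND8 array 2 of day 80 (-0.33), which were also the 3 arrays with the lowest Slc32a1 (6.95, 7.10 and 6.89). The 3′ minus 5′ signal of 4 control transcripts, a sign of RNA integrity, correlated with the component at -0.21 (Gapdh), -0.11 (actin), 0.14 (transferrin receptor) and 0.23 (pyruvate carboxylase). All 6 arrays numbered 1 scored above 0 and all 6 numbered 3 below 0, across genotypes and ages, and nothing in the labels says that a number marks a shared day or litter. The fits without the control arrays numbered 3 thus took scores below 0 out of 1 genotype only. What the component stands for, and the part of the replicate number in it, in those fits and in the correlations between members, was not tested.

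**Figure D5:**
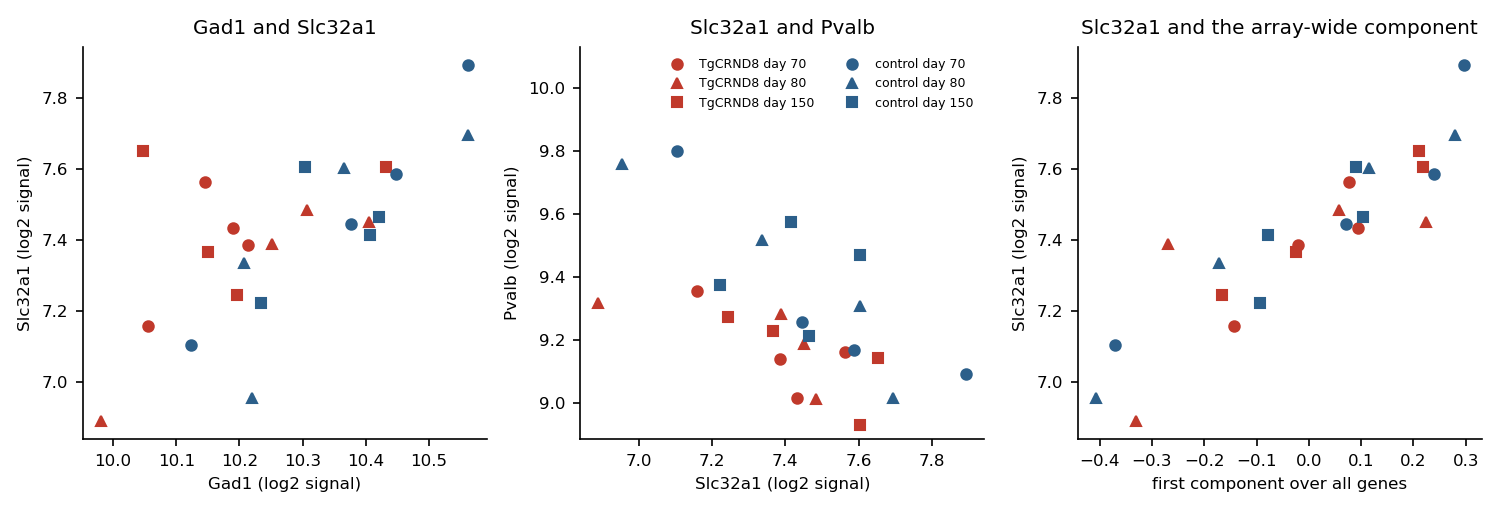
Log2 signals of Slc32a1 against Gad1, of Pvalb against Slc32a1, and of Slc32a1 against the first principal component over all genes, 1 point per array, with TgCRND8 and control in different colours and the 3 ages in different shapes. The points run upward in the first and last panels (r = 0.666 and 0.90) and downward in the middle one (r = -0.616), with both genotypes over most of the range.

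With the component as a covariate, an alternative added after the values were seen, Pvalb differed by -0.22 in the mean of ages (unadjusted p = 7.88e-05 in limma, adjusted p = 0.102) and Gad1 by -0.15 (unadjusted p = 0.00213, adjusted p = 0.499). The sizes were close to those without the covariate, and neither gene passed. The component was computed from the same values, Pvalb and Gad1 included, and entered the fit as if known. These p-values may thus be too small and are given as a description.

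The genes most like each member over the 24 arrays, by Pearson's r with the member among all genes, were Pcdh8, Hnrnpa0 and Rnf157 for Slc32a1 (0.91 each) and Hspa9, Ubqln2 and Ndrg4 for Gad1 (0.80 each). With the group means taken out these were 0.93, 0.92 and 0.92 for Slc32a1 and 0.84, 0.88 and 0.85 for Gad1. For Pvalb they were Hsd11b1, Ramp1 and Cyb5a (0.84, 0.83 and 0.83, or 0.86, 0.91 and 0.88 with group means out), and for Gad2 Vat1l, Nt5dc3 and Alg2 (0.81, 0.78 and 0.77, or 0.79, 0.74 and 0.79). The best matches were weaker for Lhx6 (Abcb6, 0.78, Tbck, 0.71, and Mfsd4a, 0.68), Gabrb2 (Matn3, 0.69, Glb1l2, 0.68, and Ctrl, 0.67) and Gabra2 (Gde1, 0.67, A830010M20Rik, 0.66, and Cyp11a1, 0.64). No member was among the 3 nearest genes of another.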

How the data were processed

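Forebrain RNA of 24 mice was measured on Affymetrix mouse arrays. Per the labels' protocols, RNA was extracted with TRIzol, cleaned on columns and labelled with biotin by in vitro transcription. The deposited table holds log2 values, 1 per probe set and array. The scale was read from the values, whose maxima of 14.0 to 14.2 exceed the natural log of the largest 16-bit reading (11.1). The normalization and the summary software are not given in the sources used here. Array medians were 4.28 to 4.38.

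Of 45101 probe sets, 64 were array controls, 34945 had 1 symbol, 932 several and 9160 none. For each of 18193 genes the probe set with the highest mean was kept. One limma fit of all arrays with 6 group means (18 residual and 7.47 prior degrees of freedom) gave 12 comparisons, adjusted by Benjamini-Hochberg over all genes. The median standard error was 0.0977 log2. On simulated arrays of the day 150 comparison, 78% of genes shifted by 0.5 log2 and 99% of those shifted by 1 passed, with 10 false calls among 187. The simulated noise was independent between genes, unlike the real arrays with their shared component. Shifts as small as the members' genotype differences, the widest being -0.27 for Pvalb at day 150, were not simulated. Named related genes were drawn from the 4 of each list with the smallest unadjusted p for the mean of ages, except the 8 of day 70 named after their values were seen, and each member's neighbours the 3 genes with the highest r. The members, lists and tests were chosen with earlier results of these data known. Alternatives covered normalization, probe sets, dim genes, variance model, array weights, Xist, the replicate block, the threshold, the arrays fitted and each array left out. The fits were run in limma 3.58.1 under R 4.3.3. Joins and permutation tests were run in Python 3.11.15, with plots drawn in matplotlib 3.10.9.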

Additional observations from a re-analysis of the deposited data

Results flagged for a closer look

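Of 42 sets of 4 arrays (7 genes in 6 groups), 2 held an array far from the other 3, by the gap to its nearest neighbour as a share of the group's range (Dixon's critical value 0.829), and chance alone flags about 1 in 20 such sets. Slc32a1 read 6.89 in TgCRND8 array 2 of day 80, with a ratio of 0.837, where the other 3 read 7.39 to 7.48. Lhx6 read 4.607 in control array 4 of day 80, with a ratio of 0.915, where the other 3 read 4.91 to 4.94.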

How the results depend on the processing

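No member passed in any of 12 comparisons under any alternative run, at an adjusted p under 0.05 or 0.10. Of 977 differences recomputed under alternatives, 950 kept their sign and side of the threshold and 27 changed sign, each of the 27 with a size of at most 0.055 log2. Quantile normalization gave 0.0121 for Gabrb2 at day 70, 0.0131 for Gabra2 at day 80 and -0.0129 for Gad2 at day 150, and median centring gave 0.0107 for Gabrb2 at day 70. The mean of all probe sets gave 0.00424, 0.0129 and 0.0104 for Slc32a1 at day 70, day 80 and the mean of ages, and 0.00252 for Gabrb2 at day 70. The first component as covariate gave -0.0134 for Slc32a1 at day 150, and leaving out the controls numbered 3 gave -0.0309 for Lhx6 at day 70. Leaving out 1 array at a time gave -0.257 to 0.00634, -0.241 to 0.0445 and -0.0279 to 0.114 for Slc32a1 at days 70, 80 and 150, -0.0309 to 0.267 for Lhx6 and -0.0425 to 0.055 for Gabrb2 at day 70, -0.0488 to 0.0203 for Gabra2 at day 80, -0.0241 to 0.0471 for Gad2 at day 150, and -0.046 to 4.54e-05 for Gad2 and -0.0986 to 0.000845 for Lhx6 in the mean of ages. The cause of these sign changes was not tested beyond the arrays or probe sets that each alternative takes away. The count of all genes that passed ranged from 12 to 35 at day 150 (22 as reported) and from 4 to 13 in the mean of ages (7 as reported). It ranged from 8 to 27 for day 150 minus day 70 (16 as reported) and 1 to 14 for day 150 minus day 80 (4 as reported) in TgCRND8, from 0 to 9 for day 150 minus day 70 in controls (4 as reported), and from 1 to 7 for the change of the genotype difference at day 150 (2 as reported). For the first 3 of these, leaving out 1 array at a time gave 8 to 14, 1 to 7 and 0 to 3.

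The labels give the same replicate numbers to all groups, and nothing says that a number marks a shared litter or day. Of 12 same-age pairs of arrays with the same number, 9 correlated above 0.1, from -0.371 to 0.612 over all same-number pairs, and 16 of 24 arrays correlated best with their own number, a hint of pairing from the data and not from the design. All 4 pairs of day 150 were above 0.1, from 0.137 to 0.256, and at days 70 and 80 not all were. The values given above are from the fit without the block. With the replicate block 0 members passed, Pvalb differed by -0.21 in the mean of ages (unadjusted p = 0.00313 in limma, adjusted p = 0.721) and by -0.27 at day 150 (unadjusted p = 0.0239, adjusted p = 0.911), and 31 genes of all passed at day 150 and 10 in the mean of ages.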
